A study of Saccharomyces cerevisiae with 4 samples.

Results

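The genes described here code for the 26S proteasome of budding yeast, Saccharomyces cerevisiae, and for its transcription factor RPN4. They were taken by systematic name from the deposited table, 33 of its 6207 reading frames: 7 alpha and 7 beta subunits of the 20S core, 8 subunits of the 19S base, 2 ubiquitin receptors of the 19S particle, 8 subunits of the 19S lid, and RPN4. Of the 33 genes, 32 had a value on all 4 arrays and were tested. RPT5 (YOR117W), coding for an ATPase of the base, had a value on array 4 alone, -0.25. RNA came from a wsc1 mutant in the BY4741 background. WSC1 (YOR008C) codes for a cell surface sensor that reports stress on the wall. Its own row was empty on all 4 arrays, and a ratio with the mutant on both sides could not check the label in any case. Untreated cells and cells given the wall-binding dye Congo Red at 30 µg/ml were grown from the same split cultures at 24 °C and collected at 4 h. Each of 4 two-colour arrays compared Congo Red RNA with untreated RNA, from 2 cultures with a dye swap for each. Congo Red RNA carried Cy3 on arrays 1 and 3 and Cy5 on arrays 2 and 4, and no label says which arrays belong to the same culture. Both sides of every ratio carry the wsc1 mutation, so the values describe the mutant only.

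The proteasome degrades proteins tagged with ubiquitin. In its 20S core, outer alpha rings gate the entry and inner beta rings hold the peptidase sites. The 19S particle sits on the core, with a base of ATPases that unfold the substrate and a lid that removes the ubiquitin chain. Rpn4 activates the genes of the subunits through a shared promoter element and is itself a short-lived substrate of the proteasome, a feedback loop that ties subunit transcription to proteasome capacity. RPN4 is in turn under factors of the drug, oxidative and heat stress responses.

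Values are log ratios, read as log2 and as Congo Red over untreated on every array. The sources state neither the log base nor the numerator. The reading rests on 16 cell wall integrity targets such as PRM5 and SLT2, of which 16 lay above 0 on all 4 arrays, with means from 0.82 to 3.30. These targets were listed with earlier results of these data known, which limits what their single sign can show. The direction is taken as likely and is not settled. All 4 arrays had values for 3080 reading frames (49.6%), with 3254 to 4991 values per array. The median of the tested genes, as means over 4 arrays, was -0.10.

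With Congo Red, none of the 32 tested proteasome genes passed the threshold, and their means over both dye orientations were small. The means ran from -0.20 for PUP1 to 0.36 for RPN7, with a median of -0.01. Limma on the culture means called 0 members above 0 and 0 below at an adjusted p of 0.05. Over all tested genes 1.53% were called above 0 and 1.07% below, so 0 of 32 members is near the share of all genes. Only RPN7 and RPN4 had an unadjusted p below 0.05, 2 of 32 members against 807 of 3080 genes. Single arrays fitted with a dye term called RPN7 above 0 and 0 members below, where 3.93% of all genes were called above 0 and 6.46% below. That fit counts the dye swaps of a culture as separate replicates, so its p-values can be too small.

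**Figure D1:**
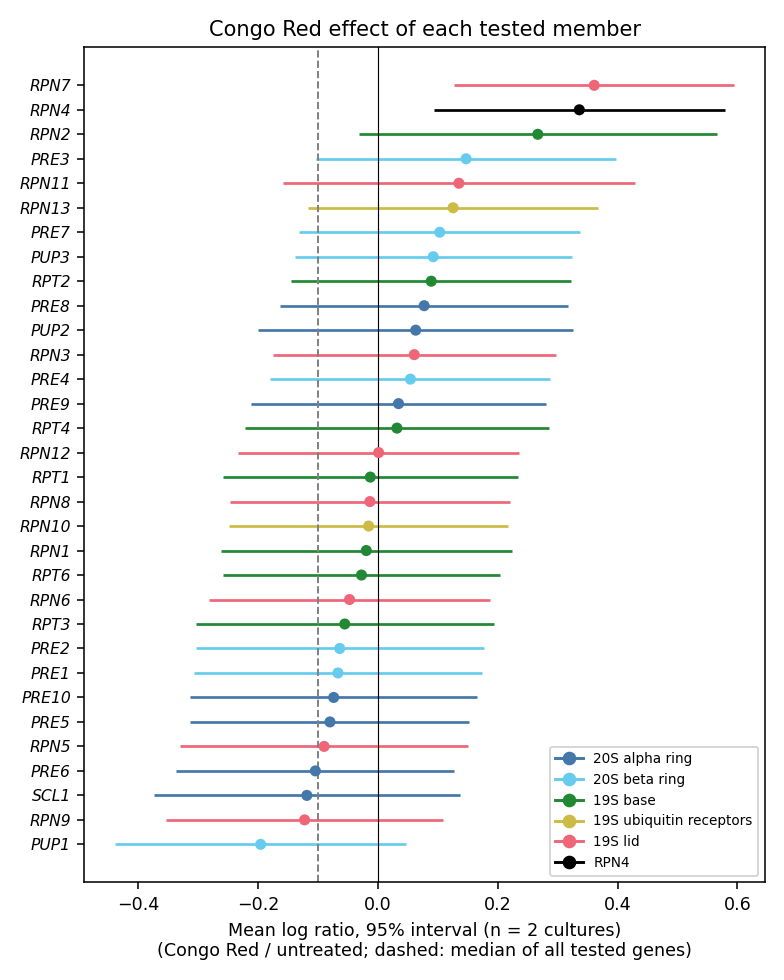
Mean log ratio of each of the 32 tested members over 4 arrays (x axis, read as log2, Congo Red over untreated) with its 95% interval from limma (n = 2 cultures), ordered by mean and coloured by subcomplex. The intervals of RPN7 and RPN4 lie above 0, those of the other 30 members span 0, and the dashed line marks the median of all tested genes at -0.10.

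RPN7 (YPR108W), a scaffold subunit of the lid, had the highest mean of the proteasome genes. Its values were 0.59, 0.19, 0.64 and 0.02 on arrays 1 to 4. All of them lay above 0, with arrays 1 and 3 higher than arrays 2 and 4. The mean was 0.36 ± 0.09 (moderated SE, n = 2 cultures), 1.28-fold if the log base is 2, with a 95% interval of 0.13 to 0.59 (limma, adjusted p = 0.119). RPN7 passed the threshold when single arrays were fitted with a dye term (adjusted p = 0.0413) and when arrays 1 and 4 were taken as a culture (adjusted p = 0.0265). These settings called 320 and 787 of the 3080 tested genes, and the first counts dye swaps of a culture as separate replicates. Over all alternatives its adjusted p ran from 0.0265 to 0.3004.

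RPN4 (YDL020C) gave 1.13 and 0.83 on arrays 1 and 3, but -0.34 and -0.28 on arrays 2 and 4. The factor gene thus lay well above 0 where Congo Red RNA carried Cy3, and below 0 where it carried Cy5. Averaged over both orientations it was at 0.34 ± 0.09, with a 95% interval of 0.09 to 0.58, and was not called (limma, adjusted p = 0.142). It was called with arrays 1 and 4 taken as a culture (adjusted p = 0.0374), a setting that called 787 of the 3080 tested genes. On single arrays without array 3 its estimate was 0.41. Its adjusted p reached 0.538 under the other alternatives. Among the 3080 tested genes RPN4 ranked 248th by mean and RPN7 221st.

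RPN2 (YIL075C), the large scaffold of the base, came next with values of 0.48, 0.36, 0.27 and -0.04 on arrays 1 to 4. Its mean was 0.27 ± 0.11 (adjusted p = 0.213), and of all alternatives only the pairing of arrays 1 and 4 called it (adjusted p = 0.0492, with up to 0.568 under the others). That pairing called 787 of the 3080 tested genes. At the other end lay PUP1 (YOR157C), the beta subunit with the trypsin-like site, at -0.09, -0.42, -0.27 and -0.001. All of its values were below 0, and the mean was -0.20 ± 0.09 (adjusted p = 0.241). The lid gene RPN9 (YDR427W) and the alpha gene SCL1 (YGL011C) had means of -0.12 each and were not called (adjusted p = 0.387 and 0.442). The means of the remaining 26 members ran from -0.10 for PRE6 to 0.15 for PRE3, none of them called.

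The number of members above 0 depended on where 0 was set and on whether the arrays were scaled. As deposited, 16 of the 32 means lay above 0, against 32.8% of all tested genes. With each array centred on its median, 27 did, against 48.2% of all, and the members' median was 0.08 with the median of all genes at -0.01. After centring and scaling, 19 did, against 48% of all, and the members' median was 0.03.

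What the proteasome genes showed on each array was a split by dye orientation. Of the 32 members, 20 lay above 0 on both arrays with Congo Red in Cy3 and below 0 on both with Congo Red in Cy5, a pattern held by 16.4% of all tested genes. The opposite pattern was seen for 3 members, PRE4, PUP3 and RPN10, against 12.3% of all. Only RPN7 and RPN13 lay above 0 on all 4 arrays (7.44% of all genes), and only PRE6 and PUP1 below 0 on all 4 (21% of all genes). After centring, the first pattern was again held by 20 members (17.3% of all genes) and the opposite pattern by 1 (16.5% of all genes). Then 7 members lay above 0 on all 4 arrays (12.2% of all genes) and 0 below (11.4% of all genes).

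**Figure D2:**
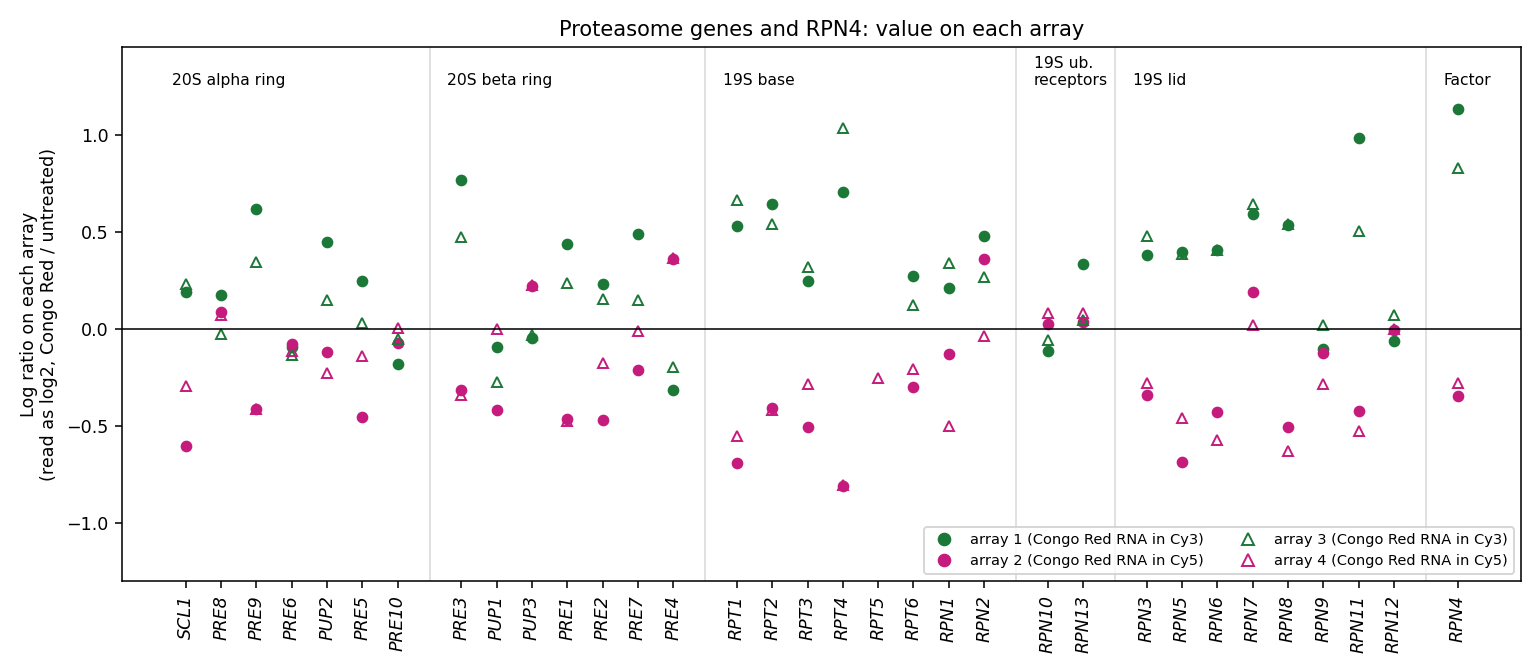
Log ratio (y axis, read as log2, Congo Red over untreated) of each of the 33 genes on each array, grouped by subcomplex; green marks Congo Red RNA in Cy3 (arrays 1 and 3), magenta in Cy5 (arrays 2 and 4). For 20 genes both green points lie above 0 and both magenta points below, RPN4 and RPT4 reaching 1.13 and 1.04 in green, while RPN7 lies above 0 throughout.

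The orientation difference is the mean of arrays 1 and 3 minus the mean of arrays 2 and 4. Limma with a dye term called it for 14 of the 32 members, 13 with the Cy3 arrays higher and 1, PRE4, with the Cy5 arrays higher. Of all tested genes, 8.15% were called with Cy3 higher and 7.86% with Cy5 higher. The members' median difference was 0.51, beside -0.03 for all genes, and 26 of the 32 differences lay above 0, against 47.2% of all tested genes. This fit has no term for the culture, since the arrays of a culture are not known. Each culture has both orientations, so a shared culture effect cancels from the difference but stays in the residual, which can make the p-values too large. Arrays of a culture also count here as separate replicates, which can make them too small. Without array 2 it called 0 members and 0 of all genes, with 16 members and 747 genes at an unadjusted p below 0.05. Without array 4 it called 0 members and 1 of all genes, with 17 members and 728 genes at that unadjusted p. Without array 1 it called 14 members among 661 genes, and without array 3 it called 13 among 660.

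RPN4 had an orientation difference of 1.29 ± 0.17 (SE over 4 arrays, adjusted p = 0.0218), which ranked 55th of the 3080 genes. RPT4 (YOR259C), an ATPase of the base, stood higher still, at 1.68 ± 0.17 (adjusted p = 0.0171) and rank 15. It gave 0.70 and 1.04 on arrays 1 and 3, and -0.81 and -0.80 on arrays 2 and 4. Those values nearly cancelled, which left RPT4 a mean of 0.03 with a 95% interval of -0.22 to 0.29. Of these genes, then, the ATPase had the wider split and a mean close to 0. The mean of RPN4 was 0.34 and was not called, and the genes were not compared by a test.

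The other genes of the base followed the same split in 5 of 6 cases. RPT1 (YKL145W) gave 0.53 and 0.66 with Congo Red in Cy3, and -0.69 and -0.55 in Cy5. Its difference was 1.22 (adjusted p = 0.0218), and RPT2 (YDL007W), the ATPase that helps open the core's gate, followed at 1.00 (adjusted p = 0.0226) and RPT3 (YDR394W) at 0.68 (adjusted p = 0.0429). RPT6 (YGL048C) at 0.45 and RPN1 (YHR027C), a scaffold that docks ubiquitin-binding shuttles, at 0.59 had the same signs and were not called (adjusted p = 0.0886 and 0.0813). RPN2 was the exception, with a difference of 0.21. The means of these base genes other than RPN2 ran from -0.06 to 0.09.

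In the lid, RPN11 and RPN8 led. RPN11 (YFR004W) codes for the deubiquitinase that cuts off the ubiquitin chain, and RPN8 (YOR261C) for its partner in the active dimer. RPN11 gave 0.98 and 0.50 with Congo Red in Cy3, and -0.42 and -0.53 in Cy5, a difference of 1.22 ± 0.20 (adjusted p = 0.0257). RPN8 gave 0.54 on both arrays 1 and 3, and -0.50 and -0.63 on arrays 2 and 4, a difference of 1.10 ± 0.14 (adjusted p = 0.0218). Both genes lay above 0 with Congo Red in Cy3 and below 0 in Cy5, a pattern held by 16.4% of all tested genes. The scaffold genes RPN5 (YDL147W), RPN6 (YDL097C) and RPN3 (YER021W) had differences of 0.96, 0.90 and 0.74, all called (adjusted p = 0.0244, 0.0244 and 0.0292). RPN7 at 0.51 was not called (adjusted p = 0.0692), nor were RPN9 at 0.16 and RPN12 (YFR052W) at 0.01. RPN12 lay between -0.06 and 0.07 on every array, the narrowest range around 0 in the lid.

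The beta ring of the core was mixed. PRE3 (YJL001W), the subunit with the caspase-like site, gave 0.77 and 0.48 with Congo Red in Cy3, and -0.32 and -0.34 in Cy5, a difference of 0.95 (adjusted p = 0.026). PRE1 (YER012W), a structural beta subunit, had a difference of 0.81 (adjusted p = 0.0281). PRE2 (YPR103W), with the chymotrypsin-like site, and PRE7 (YBL041W) had the same signs at 0.51 and 0.43 and were not called. PRE4 (YFR050C), a beta subunit needed for the caspase-like activity, ran the other way: it gave -0.31 and -0.20 in Cy3, and 0.36 and 0.37 in Cy5, a difference of -0.62 ± 0.14 (adjusted p = 0.0429). PUP3 (YER094C) shared the signs of PRE4 at -0.26 and was not called. PUP1 at 0.03 did not separate the orientations.

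Among the alpha subunits, PRE9 (YGR135W), the alpha gene that yeast can lose and live, was the only one called. It gave 0.62 and 0.34 in Cy3, and -0.41 on both arrays in Cy5, a difference of 0.89 (adjusted p = 0.0272). SCL1 at 0.66, PUP2 (YGR253C) at 0.47 and PRE5 (YMR314W) at 0.44 had the same signs and were not called (adjusted p = 0.0528, 0.107 and 0.141). SCL1 was called once arrays were centred. PRE6 (YOL038W), PRE8 (YML092C) and PRE10 (YOR362C) had differences between -0.08 and -0.01, and PRE6 lay between -0.13 and -0.08 on every array.

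The ubiquitin receptors RPN10 (YHR200W) and RPN13 (YLR421C), which capture tagged substrates, showed little of the split. RPN10 ranged from -0.11 to 0.08, with the Cy5 arrays higher. RPN13 was at 0.34 on array 1 and at 0.03 to 0.08 on the others, with a mean of 0.13 (adjusted p = 0.397). Neither gene was called for the orientation difference (adjusted p = 0.508 and 0.592).

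**Figure D3:**
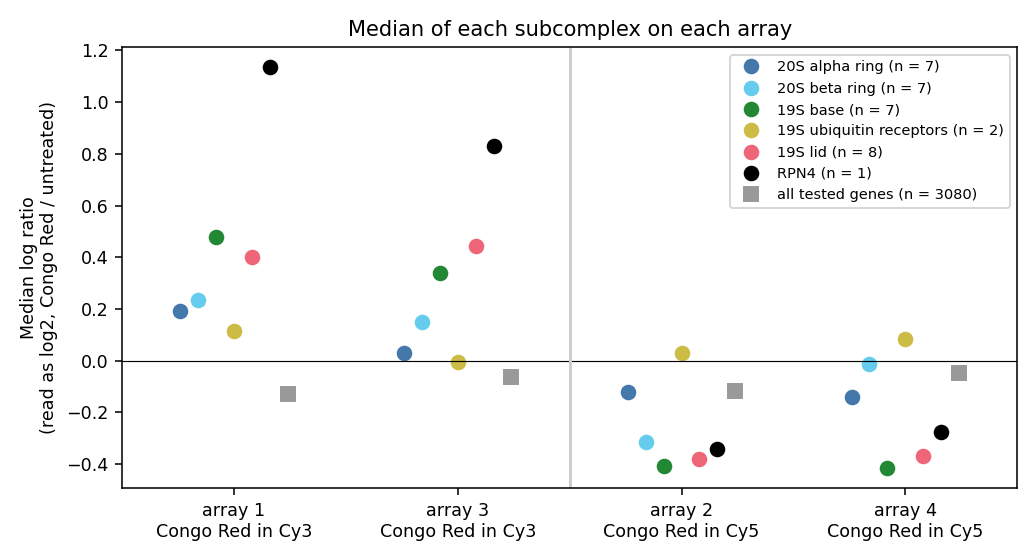
Median log ratio (y axis, read as log2, Congo Red over untreated) of each subcomplex, RPN4 and all tested genes on each array (x axis, arrays 1 and 3 left, arrays 2 and 4 right). The base and lid lie at 0.34 to 0.48 on arrays 1 and 3 and at -0.42 to -0.37 on arrays 2 and 4, while all tested genes lie between -0.13 and -0.05.

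By subcomplex, the median orientation difference was 0.82 in the lid, 0.68 in the base, 0.44 in the alpha ring, 0.43 in the beta ring and 0.00 for the 2 receptors. Cy3 was called higher for 5 of 8 lid genes, 4 of 7 base genes, 2 of 7 beta genes and 1 of 7 alpha genes, against 8.15% of all tested genes. Cy5 was called higher for 1 of 7 beta genes, PRE4, against 7.86% of all. These counts were not set against each other by a test. The median means of the subcomplexes lay closer together, at -0.07 for the alpha ring, 0.05 for the beta ring, -0.01 for the base and -0.01 for the lid.

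**Figure D4:**
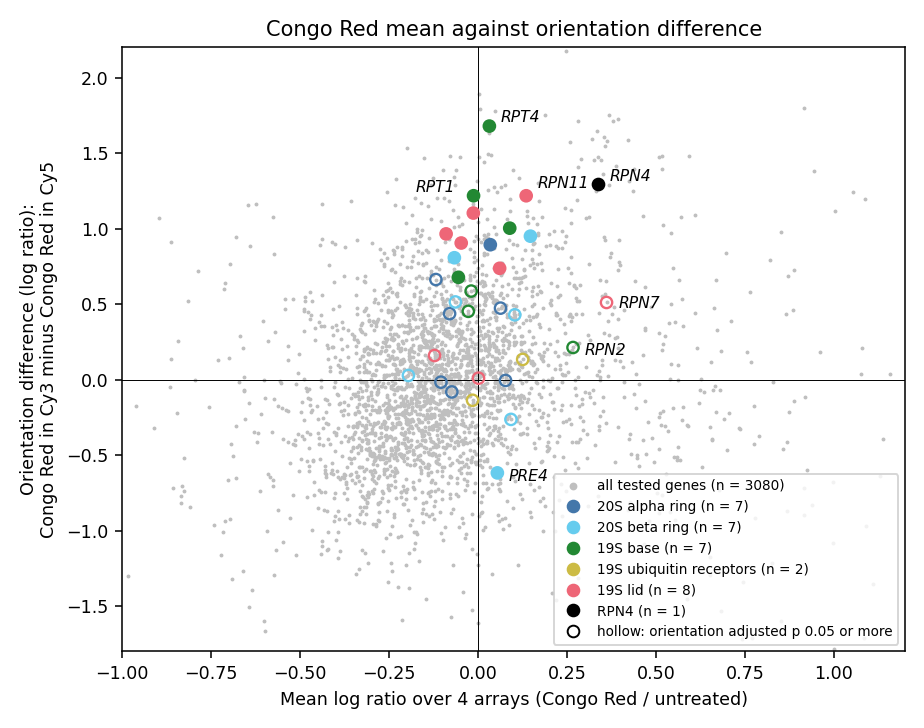
Mean over 4 arrays (x axis) against orientation difference (y axis), both as log ratios, for all tested genes (grey; 34 lie outside the axes) and for the members by subcomplex, filled where the orientation difference was called. Members have means between -0.20 and 0.36, and 26 of the 32 lie above 0 on the y axis (47.2% of all tested genes). They reach 1.68 for RPT4, PRE4 lies at -0.62, and RPN4 lies at 1.29 with a mean of 0.34 that was not called.

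Arrays of the same orientation ranked the members alike. Across the 32 members, Pearson's r was 0.84 between arrays 1 and 3 and 0.80 between arrays 2 and 4, and -0.74 to -0.43 between arrays of opposite orientation. Across all 3080 genes the corresponding values were 0.64, 0.71 and -0.05 to 0.33. These are descriptions across genes, which share the arrays and are not independent. Since the design gives each culture both orientations, the split can also be read within a culture. Whichever Cy3 array was set against a Cy5 array, 24 to 26 of the 32 members were higher on the Cy3 array, with median differences of 0.45 to 0.70, where 43.7 to 54.2% of all genes were higher. The difference of RPN4 within such pairs was 1.11 to 1.48. Dye orientation and anything else that arrays 1 and 3 share apart from arrays 2 and 4 cannot be told apart.

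The split also sets how far the reading of the ratios matters for these genes. If arrays 2 and 4 had been deposited as plain channel ratios and are turned, the difference by orientation becomes the Congo Red effect. RPN4 would then be at 0.65, RPT4 at 0.84 and PRE4 at -0.31, with a median of 0.26 over the 32 members and -0.01 over all genes. Limma on the culture means then called 0 members and 0 of all genes, with 18 members and 857 genes at an unadjusted p below 0.05. Under that reading each of the 16 cell wall integrity targets would change sign with the orientation, and all 16 have a single sign as deposited. Those targets were listed with earlier results of these data known, and which reading holds was not tested.

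Genes that work with the proteasome gave no call for Congo Red. Of 21 listed genes for assembly factors and associated proteins, 15 were tested and 0 were called by limma on culture means. Of all tested genes 1.53% were called above 0 and 1.07% below, so 0 of 15 is near that share. At an unadjusted p below 0.05 there was 1, beside 807 of the 3080 genes. The largest means were 0.26 for TMC1, coding for a zinc finger protein, and -0.21 for RAD23, coding for a shuttle that brings ubiquitylated proteins to the proteasome. The assembly chaperone gene UMP1 was at -0.03. Orientation was called for 3 of the 15: TMC1 at 1.12 and STS1, needed to localise proteasomes to the nucleus, at 0.86 had the Cy3 arrays higher, and FUB1 at -0.77 the Cy5 arrays. That share is near the 8.15% and 7.86% of all genes called in these directions, which add to 493 of 3080, and the median difference of the list was 0.05.

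Of 28 listed ubiquitin enzymes and CDC48 partners, 15 were tested and 0 were called for Congo Red. This is near the share of all tested genes, 1.53% above 0 and 1.07% below. At an unadjusted p below 0.05 there were 3, again beside 807 of the 3080 genes. SHP1, coding for a Cdc48 cofactor, was at -0.27 and UBC5, a ubiquitin-conjugating enzyme gene, at 0.26. The polyubiquitin gene UBI4 was at 0.01, with 0.22 and 0.51 in Cy3 and -0.27 and -0.41 in Cy5. Its orientation difference of 0.70 was called (adjusted p = 0.0477), as were those of the conjugating enzyme genes RAD6 at 0.98 and UBC7 at -1.06. These 3 of 15 are again near the share of all genes called for orientation. UBR2 and MUB1, whose products send Rpn4 to degradation, were not tested: UBR2 was at -0.44 and -0.46 on arrays 1 and 3 alone, and MUB1 at -0.03, -0.38 and -0.09 on arrays 2 to 4. Of the 4 factors that act on the RPN4 promoter, PDR3 alone was tested. PDR3 lay below 0 on all 4 arrays, at -1.04, -0.14, -0.39 and -0.002, with a mean of -0.39 ± 0.13 that was not called (adjusted p = 0.166). YAP1 was at -0.40 on array 4 alone, HSF1 at -0.57 and 0.16 on arrays 3 and 4, and the PDR1 row was empty.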

How the data were processed

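Total RNA of 4 two-colour arrays was compared as above. The table that the authors deposited gives a log ratio for each reading frame on each array, taken here as log2. Its log base, numerator, background correction, normalization and rule for empty cells are not stated in the labels, so signal over background is unknown. Of 6209 rows, 2 name control spots and were left out. Symbols came from the RefSeq R64 gene table, in which 5654 of 6207 systematic names matched. No coordinates or sequences are given.

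Values were used as deposited, on genes with a value on all 4 arrays. For Congo Red, arrays of opposite dye were averaged into 2 culture means and fitted by an intercept-only model in limma 3.58.1 under R 4.3.3. Both pairings that give each culture both orientations were fitted (1 with 2 and 3 with 4; 1 with 4 and 2 with 3). The larger p, SE and interval were kept. The moderated SE borrows from the spread of all genes, and the number of arrays limits the precision. Orientation was fitted by limma as a dye term over the 4 single arrays. P-values are two-sided, adjusted by Benjamini-Hochberg over 3080 genes, with a threshold of 0.05.

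The members, lists and tests were chosen with earlier results of these data known. All members are named. Full statistics go to called members, RPN4 and the 3 highest and 3 lowest means. From related lists the 2 largest means are named, and other genes there were chosen after their values were seen. Fits were tested on simulated data. Alternatives covered centring, scaling, pairing, the dye term, values on 3 arrays, turned ratios and leaving out each array.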

Additional observations from a re-analysis of the deposited data

Results flagged for a closer look

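RPN13 on array 1, at 0.34, stood apart from its values of 0.03 to 0.08 on the other arrays by more than Dixon's 95% limit for 4 values. It was the only such case among 32 members, and chance flags about 1 in 20 groups.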

How the results depend on the processing

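For Congo Red, 80 of 3080 genes were called (47 higher, 33 lower), with 0 members among them. This count was 4 (4 and 0) with each array centred on the median of the tested genes, and 32 (30 and 2) on the median of all its values, an alternative chosen after seeing the data. It was 31 (29 and 2) after centring and scaling, 787 (255 and 532) when arrays 1 and 4 formed a culture, and 320 (121 and 199) on single arrays with a dye term. It was 36 (28 and 8) without that term, 214 (95 and 119) where 3 arrays sufficed, and 0 with arrays 2 and 4 turned. Leaving out 1 array from the dye-term fit gave 13 to 823. Under these settings the members called were RPN7, RPN4 and RPN2 when arrays 1 and 4 formed a culture, RPN7 with a dye term and without array 1, and RPN7 and RPN4 without array 3. The cause was not tested. With arrays 2 and 4 turned, the means of SCL1, RPN9 and PUP1 changed sign to 0.33, 0.0796 and 0.0134. Centred on all values, SCL1 came to 0.000558. The orientation difference was called for 493 genes, and for 0 to 661 without 1 array. The fewest came without array 2 (0, with 747 at an unadjusted p below 0.05) or array 4 (1), when arrays 1 and 3 alone give each gene's own noise. The members' median of -0.01 ran from -0.10 to 0.10 without 1 array. Ratios alone do not show which genes lay near background.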
